A study of Mus musculus with 24 samples.

Results

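The MiT/TFE family and its closest partners were followed through accessible chromatin as 6 genes: the transcription factors Mitf, Tfeb, Tfe3 and Tfec, the upstream regulator Flcn, and Gpnmb, a glycoprotein gene known as a target of the family. They were 6 of 21951 protein-coding genes. Every deposited ATAC-seq peak within 100 kb was given to the gene with the nearest transcription start site, and the peaks whose nearest gene was one of the 6 were taken. After length limits described below these peaks formed 49 of the 45006 regions found across all libraries. All 6 genes reached the minimum mean of 0.5 peaks per library that was set for testing (Flcn only just, at 0.5), and 22 of the 49 regions were detected in at least 5 libraries, the minimum for testing.

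ATAC-seq maps open chromatin with the Tn5 transposase. It was applied to bone marrow-derived macrophages, grown for 7 days in serum-containing medium from the marrow of male mice of postnatal day 28, with 4 C57BL6/J animals (1, 4, 6 and 7) and 4 BTBR T+ Itpr3tf/J animals (2, 3, 5 and 8, called BTBR here). From each animal, cells were kept in media, exposed to LPS, the endotoxin of Gram-negative bacteria, at 100 ng/ml for 24 hours (LPSx1), or exposed to LPS at 100 ng/ml for 4 hours, washed, rested for 20 hours and exposed again for 24 hours (LPSx2). The labels' biological replicate number was taken as the animal. The design asks how 1 and 2 exposures to LPS change open chromatin and whether the strains differ.

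MiT/TFE factors are basic helix-loop-helix leucine zipper proteins that bind E-box sequences, among them the CLEAR element found near many lysosomal genes, and they drive the formation of lysosomes and autophagy. Tfeb, Tfe3 and Mitf are held in the cytoplasm when the kinase complex mTORC1 phosphorylates them at the lysosome, and Flcn, with its partners Fnip1 and Fnip2, acts on the Rag GTPases that bring them there. Tfec is the family member whose expression is most restricted to the macrophage lineage, and Mitf is also known from melanocytes, mast cells and osteoclasts.

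Of 24 libraries, 22 were used: 3 media, 4 LPSx1 and 3 LPSx2 of C57BL6/J and 4 of each treatment of BTBR. The media and LPSx2 lists of C57BL6/J animal 6 held fewer than 5000 peaks, held no peak at any of the 6 genes and were left out. After merging overlapping peaks the kept lists held 11349 to 127242 peaks. Their median length was 22382 in media, 30872 with LPSx1 and 33184 with LPSx2, so full lists differed in length between treatments. In 7 lists, 66.7% to 87.4% of peaks overlapped another of the same list: all 3 from C57BL6/J animal 1, and those for media and for LPSx2 from BTBR animal 3 and from C57BL6/J animal 4. In animals 3 and 4 the LPSx1 lists lacked such overlap, so there a difference of LPSx1 from media cannot be told apart from the type of list. Results are therefore also given without these 7 lists. This leaves 15 libraries, and animals 3 and 4 then keep only LPSx1. C57BL6/J media and C57BL6/J LPSx2 then rest on 1 library each, from animal 7. A call lost in that fit therefore cannot be told apart from an effect of the smaller number of libraries. Lanes 1 and 2 held animals 1 to 4 and lanes 3 and 4 held animals 5 to 8, and the lists of each lane were shortened to the same number of strongest peaks, 11349, 22037, 16045 and 13957 in lanes 1 to 4. The list kept whole was a media list in lanes 1, 2 and 3 and an LPSx1 list in lane 4. A peak number in the shortened lists counts how many of the strongest peaks of a library lay at a gene. The share of these peaks within 1 kb of a start site averaged 55.2% over media lists (42.3% to 67.9%), 45.8% over LPSx1 lists (37.2% to 54.6%) and 43.4% over LPSx2 lists (36.1% to 48.4%), and its part in the results at start sites was not tested. Additional PCR cycles numbered 6 to 8 in lanes 1 and 2 and 5 to 13 in lanes 3 and 4, left-out libraries included. The part of these cycles in differences between lanes was not tested. In such bulk samples, fewer cells of a type and less open chromatin per cell cannot be told apart.

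All 9 macrophage markers (Adgre1, Csf1r, Cd68, Itgam, Mertk, Fcgr1, Spi1, Cd14 and Lyz2) had peaks, with 6 to 50 peaks in all per library. Per treatment the sum ranged from 10 to 39 (media), from 6 to 42 (LPSx1) and from 6 to 50 (LPSx2). All 4 B cell markers were at 0 in every library. The 5 melanocyte markers summed to 0 to 3 peaks with Mlana, Sox10 and Tyr at 0, the 5 mast cell markers to 0 to 1 with Cpa3, Fcer1a, Mcpt4 and Tpsb2 at 0, and the 5 fibroblast and stromal markers to 0 to 4 with Col1a1, Col1a2 and Pdgfra at 0. Neutrophil markers summed to 0 to 3 with Elane, Ly6g and Ngp at 0, T cell markers to 0 to 2 with Cd3e at 0, and dendritic cell markers to 0 to 6 with all 5 detected. Median sums in media, LPSx1 and LPSx2 were 15.0, 20.0 and 23.0 for macrophage markers and 2.0, 0.0 and 0.0 for T cell markers. Of the macrophage list Lyz2 rose with LPSx1, from 2.14 ± 1.35 peaks (SD, n = 7) to 3.5 ± 2.27 (n = 8; 1.53 ± 0.407, limma adjusted p = 0.0429). Of the dendritic cell list Flt3 fell with LPSx2, from 1.57 ± 0.535 peaks in media (SD, n = 7) to 0.429 ± 0.535 (n = 7), with a limma adjusted p of 0.016. Lyz2 was higher with LPSx1 in 4 of 7 animals, lower in 1 and equal in 2. Over all genes limma called 3.46% higher for LPSx1 and 3.08% lower for LPSx2. With full lists it called 0 genes in either contrast, so neither marker call held there. Whether cells of these types had a part in the results at the 6 genes was not tested.

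The sequences below are the stretches of reference genome (GRCm38.p6, the assembly of mm10; forward strand; C57BL/6J sequence, so BTBR alleles can differ) under the regions that the results turn on, limited to the central part, 1 peak wide, and to bases outside annotated exons. Capitals mark matches to motifs searched on both strands: TCATGTG, the core of the M-box that MiT factors bind, TGAGTCA for AP-1, TTGCNNAA for C/EBP and GAGGAAGT for PU.1. The first pair lies upstream of Gpnmb, at chr6:49013041-49013241 in the region that fell with LPS and at chr6:49026590-49026790 in the region that rose.
Gpnmb region 23.4 kb upstream: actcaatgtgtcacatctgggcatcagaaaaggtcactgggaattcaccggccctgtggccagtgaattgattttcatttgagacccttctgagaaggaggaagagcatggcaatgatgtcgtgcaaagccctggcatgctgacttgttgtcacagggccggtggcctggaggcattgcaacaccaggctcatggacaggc
Gpnmb region 9.86 kb upstream: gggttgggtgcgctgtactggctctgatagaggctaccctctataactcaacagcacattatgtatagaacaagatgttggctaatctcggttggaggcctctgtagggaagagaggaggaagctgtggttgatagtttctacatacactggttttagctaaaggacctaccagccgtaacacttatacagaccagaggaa
The next pair covers the start of Gpnmb, at chr6:49035784-49035984 and chr6:49036445-49036545, where the shortened lists held peaks in media libraries and in no LPS library.
Gpnmb region 0.662 kb upstream: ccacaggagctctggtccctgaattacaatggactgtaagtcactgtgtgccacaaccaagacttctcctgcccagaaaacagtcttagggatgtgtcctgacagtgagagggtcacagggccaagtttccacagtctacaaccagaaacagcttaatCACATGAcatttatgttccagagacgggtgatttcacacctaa
Gpnmb region at the start: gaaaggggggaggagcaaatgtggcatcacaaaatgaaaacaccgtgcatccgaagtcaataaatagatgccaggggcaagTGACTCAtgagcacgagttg
In Tfeb, chr17:47737767-47737920 lies in a region at an alternative start that fell with LPS, and chr17:47784488-47784688 lies in an intron region that rose and holds 2 C/EBP matches.
Tfeb region 0.79 kb downstream of the gene start: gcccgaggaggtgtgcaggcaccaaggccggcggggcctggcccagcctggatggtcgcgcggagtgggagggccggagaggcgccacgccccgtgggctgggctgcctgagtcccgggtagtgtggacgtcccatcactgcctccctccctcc
Tfeb region 47.6 kb downstream of the gene start: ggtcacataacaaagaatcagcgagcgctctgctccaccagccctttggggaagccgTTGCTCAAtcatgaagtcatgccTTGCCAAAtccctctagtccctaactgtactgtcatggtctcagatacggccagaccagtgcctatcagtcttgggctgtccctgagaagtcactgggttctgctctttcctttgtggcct
In Tfec, chr6:16964021-16964221 lies in the distal region called lower for LPSx1, and chr6:16891982-16892182 in an intron region with an M-box core that was found in 21 of 22 libraries. In Mitf, chr6:97829129-97829329 lies in an intron region with a PU.1 match.
Tfec region 65.7 kb upstream: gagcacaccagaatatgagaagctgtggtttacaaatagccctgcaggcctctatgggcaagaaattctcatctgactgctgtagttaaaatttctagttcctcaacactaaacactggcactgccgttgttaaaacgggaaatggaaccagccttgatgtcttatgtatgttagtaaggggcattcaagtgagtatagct
Tfec region 6.36 kb downstream of the gene start: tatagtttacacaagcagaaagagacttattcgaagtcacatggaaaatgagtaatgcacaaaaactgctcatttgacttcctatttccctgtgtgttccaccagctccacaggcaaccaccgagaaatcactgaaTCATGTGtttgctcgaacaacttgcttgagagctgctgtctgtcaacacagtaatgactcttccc
Mitf region 22.2 kb downstream of the gene start: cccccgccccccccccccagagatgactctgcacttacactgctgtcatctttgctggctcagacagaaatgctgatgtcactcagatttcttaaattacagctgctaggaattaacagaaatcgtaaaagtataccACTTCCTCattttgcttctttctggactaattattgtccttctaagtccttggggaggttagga

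The CLEAR element was in 0 of the 49 windows (the central part of each region, 1 peak wide) and in 0.182% of all 45006. The shorter E-box CACGTG, which lies inside it, was in 1 window, at Flcn, beside 5.03% of all. The M-box core was in 3 windows (4.29% of all), and these were the pair at the start of Gpnmb and the Tfec intron. AP-1 was in 7 (16.1% of all), PU.1 in 4 (8.79%), C/EBP in 12 (12.7%) and the NF-kB motif in 0 (0.642%). In the 11 RefSeq promoters of the 6 genes (300 bp each), CLEAR, E-box and M-box core each had 0 matches, beside 0.326%, 7.15% and 3.77% of all 32851 promoters. At Gpnmb the promoter match was AP-1 (5.2% of all), which is the one in capitals at the gene's start above. C/EBP was in 4 of the 11 promoters, at Flcn, Mitf and Tfeb, beside 10.8% of all. These matches are descriptions of letters in a window, not binding sites.

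Gpnmb, a transmembrane glycoprotein of lysosomes and melanosomes (ENSMUSG00000029816.10, chr6:49036546-49070929 in mm10), had fewer peaks in the shortened lists with both LPS schedules. In media it had 2, 4 and 1 peaks in C57BL6/J animals 1, 4 and 7 and 3, 5, 3 and 2 in BTBR animals 2, 3, 5 and 8. With LPSx1 it had 1, 2, 1 and 0 in C57BL6/J animals 1, 4, 6 and 7 and 1 in each BTBR animal. With LPSx2 it had 1, 1 and 0 in C57BL6/J animals 1, 4 and 7 and 2, 2, 1 and 0 in BTBR animals 2, 3, 5 and 8. The number was below media in 7 of 7 animals with either schedule, while the ranges of the treatments overlapped between animals. The media mean was 2.86 ± 1.35 peaks (SD, n = 7), beside 1.0 ± 0.535 for LPSx1 (n = 8) and 1.0 ± 0.816 for LPSx2 (n = 7).

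In limma the fall of Gpnmb was 1.77 ± 0.307 peaks for LPSx1 (fitted difference -1.77 ± SE, adjusted p = 0.0057) and 1.83 ± 0.316 for LPSx2 (-1.83 ± SE, adjusted p = 0.00582). Within animals the mean difference was -2.25 in lanes 1 and 2 (4 animals) and -1.33 in lanes 3 and 4 (3 animals) for LPSx1, and -2.0 and -1.67 for LPSx2. Gpnmb was the 1 member of 6 called in each contrast, and lower in both; over all 9104 tested genes limma called 5.79% for LPSx1 (3.46% higher and 2.33% lower) and 6.89% for LPSx2 (3.81% higher and 3.08% lower). The fall was called with each animal left out in turn, with adjusted p up to 0.0353 for LPSx1 and 0.0463 for LPSx2. It was not called without the 7 lists with duplicates (-1.23, adjusted p = 0.235, and -1.33, adjusted p = 0.246), without the lane as covariate (0.0876 and 0.0949), with full lists (-0.188, adjusted p = 0.98, and -1.25, adjusted p = 0.868) or in the stronger 50% of each list, where the differences were 0.125 and 0.0417.

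**Figure D1:**
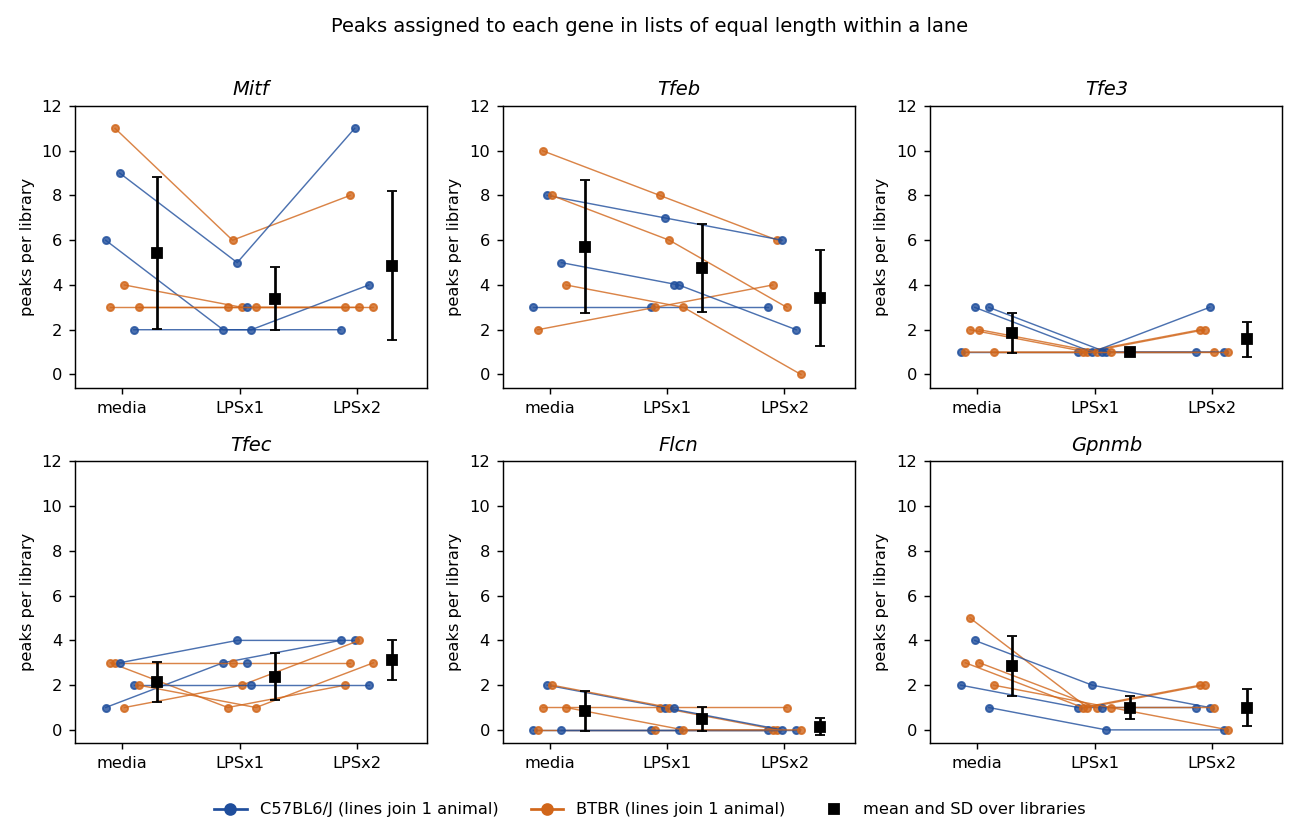
Peaks assigned to each of the 6 genes (vertical axis, peaks per library) in media, LPSx1 and LPSx2. Circles are libraries, lines join the libraries of 1 animal, and black squares with bars are means and SD over 7 or 8 libraries. Gpnmb falls from a mean of 2.86 in media to 1.0 with either LPS schedule, and Tfe3 has exactly 1 peak in all 8 LPSx1 libraries.

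Regions showed where Gpnmb had fewer peaks in the shortened lists. Each region carries a rank value, which is 100 for the strongest peak of a library's list, near 0 for the weakest one used and 0 where the shortened list held no peak. A value of 0 therefore often stands for a weaker peak below the length limit, and detection below means detection in the shortened lists unless full lists are named. The intergenic region 23.4 kb upstream (chr6:49012933-49013350, the first sequence above) was detected in all 7 media libraries, in 3 of 8 LPSx1 and in 3 of 7 LPSx2 libraries. In the full lists it was present in 7, 6 and 6 of them, so most LPS libraries held a weaker peak there. In media its rank values were 15.4, 41.0 and 14.1 in C57BL6/J animals 1, 4 and 7 and 28.0, 52.0, 76.9 and 38.5 in BTBR animals 2, 3, 5 and 8. With LPSx1 they were 0 except 8.8 in C57BL6/J animal 4, 61.1 in BTBR animal 5 and 14.3 in BTBR animal 8. With LPSx2 they were 0 except 1.31, 41.9 and 52.8 in BTBR animals 2, 3 and 5. BTBR animal 5 stayed high throughout, so the treatments overlapped between animals, but the value was below media in 7 of 7 animals with either schedule.

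The fitted difference of that region was -29.7 ± 8.83 (SE) for LPSx1 (limma adjusted p = 0.0156) and -24.2 ± 9.08 for LPSx2 (adjusted p = 0.0482). Within animals it was -31.9 in lanes 1 and 2 and -18 in lanes 3 and 4 for LPSx1, and -23.3 and -25.6 for LPSx2. Without the 7 lists with duplicates it was -25.7 (adjusted p = 0.259) and -21.9 (adjusted p = 0.383). The LPSx1 call was lost without animal 3 (adjusted p = 0.0613) or animal 4 (0.0647), and the LPSx2 call without any of animals 1, 2, 4, 7 and 8, with adjusted p up to 0.212.

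The region 9.86 kb upstream of Gpnmb (chr6:49026556-49026825) ran the other way in animals 1 to 4. Its rank value in media was 0, 19.1, 63.6 and 11.2 in animals 1 to 4, and 57.6, 50.2, 78.2 and 52.7 with LPSx1 in the same animals. In animals 5, 7 and 8 it was 0 under every treatment (animal 7 had a peak below the limit under each), and in the LPSx1 library of animal 6 it was 48.0. The LPSx1 difference was 26.7 ± 9.58 (limma adjusted p = 0.0434), the LPSx2 difference 17.6 ± 9.85 (adjusted p = 0.186). Within animals the LPSx1 difference was 36.2 in lanes 1 and 2 and 0.0 in lanes 3 and 4. The call did not hold with the animal as replicate block (22.2, adjusted p = 0.0793), without the 7 lists with duplicates (12.8, adjusted p = 0.656) or without any one of animals 1 to 6 or 8, with adjusted p from 0.0547 to 0.14.

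At the start site of Gpnmb (chr6:49036417-49036674, the sequence with the AP-1 match; its M-box core lies in the exon part that is not shown) 4 libraries had a peak and all were media: rank value 2.65 in C57BL6/J animal 1 and 20.9, 45.7 and 10.9 in BTBR animals 2, 3 and 5. The neighbouring region 0.662 kb upstream (chr6:49035750-49036019) also had a peak in 4 libraries, all media, with rank values between 2.43 and 8.37. Both fell short of the 5 libraries needed for a test, so no p is given. In the full lists the start site had a peak in 6 of 7 media, 1 of 8 LPSx1 and 1 of 7 LPSx2 libraries, and the neighbour in 6, 2 and 1.

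Tfeb, the factor best known for driving lysosomal genes (ENSMUSG00000023990.18, chr17:47737030-47792419), changed at single regions in opposite directions. Its peak number was 3, 8 and 5 in media, 3, 7 and 4 with LPSx1 and 3, 6 and 2 with LPSx2 in C57BL6/J animals 1, 4 and 7, and 4 with LPSx1 in animal 6. In BTBR animals 2, 3, 5 and 8 it was 2, 10, 8 and 4 in media, 3, 8, 6 and 3 with LPSx1 and 4, 6, 3 and 0 with LPSx2. The treatments overlapped widely. The LPSx2 difference of -2.21 ± 0.725 peaks missed the threshold (limma adjusted p = 0.0814), with 5 of 7 animals lower, and the LPSx1 difference was -1.01 ± 0.705 (adjusted p = 0.437). Within animals the LPSx2 difference was -1.0 in lanes 1 and 2 and -4.0 in lanes 3 and 4. It passed in 3 of 18 alternatives, among them the fit that leaves out genes with 1 peak number in every library (adjusted p = 0.0495) and the fit without animal 2 (0.0113).

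The region at an alternative start 0.79 kb inside Tfeb (chr17:47737681-47737959, overlapping an exon; its exon-free stretch is printed above) ranked high in media and was mostly below the length limit after LPSx2. It was in the shortened lists of 6 of 7 media, 5 of 8 LPSx1 and 2 of 7 LPSx2 libraries, and in the full lists of 7, 7 and 5. Its rank values in media were 40.9, 48.6 and 54.7 in C57BL6/J animals 1, 4 and 7 and 0, 76.7, 72.5 and 40.4 in BTBR animals 2, 3, 5 and 8. With LPSx1 they were 0, 16.8, 0 and 15.0 in C57BL6/J animals 1, 4, 6 and 7 and 0, 3.01, 36.8 and 42.9 in the BTBR animals. With LPSx2 they were 0 in 5 of 7 libraries, 1.4 in C57BL6/J animal 4 and 50.4 in BTBR animal 3. BTBR animal 2 had only peaks below the limit there under all 3 treatments, and every other animal was lower with LPSx2 than in media.

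The difference of that region was -34.3 ± 10.0 for LPSx1 (limma adjusted p = 0.0139, 5 of 7 animals lower) and -41.2 ± 10.3 for LPSx2 (adjusted p = 0.00422, 6 of 7 lower). Within animals it was -36.6 in lanes 1 and 2 and -24.3 in lanes 3 and 4 for LPSx1, and -28.6 and -55.9 for LPSx2. The LPSx2 call held with each animal left out (adjusted p 0.00263 to 0.029), and the LPSx1 call was lost without animal 3 (0.0646). Without the 7 lists with duplicates the differences were -28.6 (adjusted p = 0.258) and -46.2 (adjusted p = 0.103). With full lists they were -16.8 (adjusted p = 0.453) and -35.2 (adjusted p = 0.0971).

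A region at another annotated start 17.4 kb inside Tfeb (chr17:47754264-47754573, over an exon, with a PU.1 and a C/EBP match) was detected in 7 of 7 media, 5 of 8 LPSx1 and 2 of 7 LPSx2 libraries, and in the full lists in 7, 7 and 3. In media its rank values were 46.1, 52.5 and 47.6 in C57BL6/J animals 1, 4 and 7 and 1.76, 72.1, 54.0 and 18.1 in BTBR animals 2, 3, 5 and 8. With LPSx2 the shortened lists held it in C57BL6/J animal 7 (6.92) and BTBR animal 2 (16.6), and it was 0 in the other 5. Apart from BTBR animal 2, all LPSx2 values were below all media values. The mean was 41.8 ± 23.8 in media (SD, n = 7), 21.9 ± 20.1 in LPSx1 (n = 8) and 3.36 ± 6.39 in LPSx2 (n = 7).

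The LPSx2 difference at 17.4 kb was -39.4 ± 9.6 (limma adjusted p = 0.00342, 6 of 7 animals lower), with -39.0 in lanes 1 and 2 and -37.6 in lanes 3 and 4 within animals. The LPSx1 difference was -22.0 ± 9.34 (adjusted p = 0.0863). The LPSx2 call held with each animal left out, with adjusted p from 0.00131 to 0.0253. Without the 7 lists with duplicates it was -29.9 (adjusted p = 0.207), and with full lists -34.6 (adjusted p = 0.102).

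In the opposite direction, the intron region 47.6 kb inside Tfeb (chr17:47784435-47784741, the sequence with 2 C/EBP matches) was detected in 2 of 7 media, 6 of 8 LPSx1 and 5 of 7 LPSx2 libraries, and in the full lists in 4, 7 and 6. In media BTBR animal 3 (42.8) and C57BL6/J animal 4 (35.4) were above 0. With LPSx2 its values were 65.5, 55.9, 69.4, 72.0 and 50.4 in animals 1 to 5 and 0 in animals 7 and 8, which were at 0 under every treatment (animal 7 with a peak below the limit in each). All LPSx2 libraries above 0 were above all media libraries.

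The LPSx2 difference of that intron region was 33.6 ± 9.61 (limma adjusted p = 0.0112, 5 of 7 animals higher and none lower), the LPSx1 difference 24.2 ± 9.35 (adjusted p = 0.0599). Within animals the LPSx2 difference was 46.1 in lanes 1 and 2 and 16.8 in lanes 3 and 4. The call was lost without animal 1 (25.7, adjusted p = 0.0902) or animal 4 (33.0, adjusted p = 0.051). It was also lost without the 7 lists with duplicates (17.7, adjusted p = 0.499) and narrowly with full lists (39.5, adjusted p = 0.0514).

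The remaining tested Tfeb regions did not pass. At the gene's first start (chr17:47736849-47737150) the rank value was 25.1 ± 25.1 in media (SD, n = 7), 37.3 ± 20.9 in LPSx1 (n = 8) and 19.3 ± 20.7 in LPSx2 (n = 7), with limma adjusted p of 0.407 and 0.826. At another start region, 31.8 kb inside (chr17:47768719-47768983, with an AP-1 match), it was 43.0 ± 29.3, 31.6 ± 32.7 and 47.1 ± 35.5, with adjusted p of 0.417 and 0.911. An intron region 22.8 kb inside (chr17:47759763-47759984, with an AP-1 match) was in the shortened lists of 3 media libraries, too few for a test, and in the full lists of 5 media, 3 LPSx1 and 2 LPSx2 libraries.

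**Figure D2:**
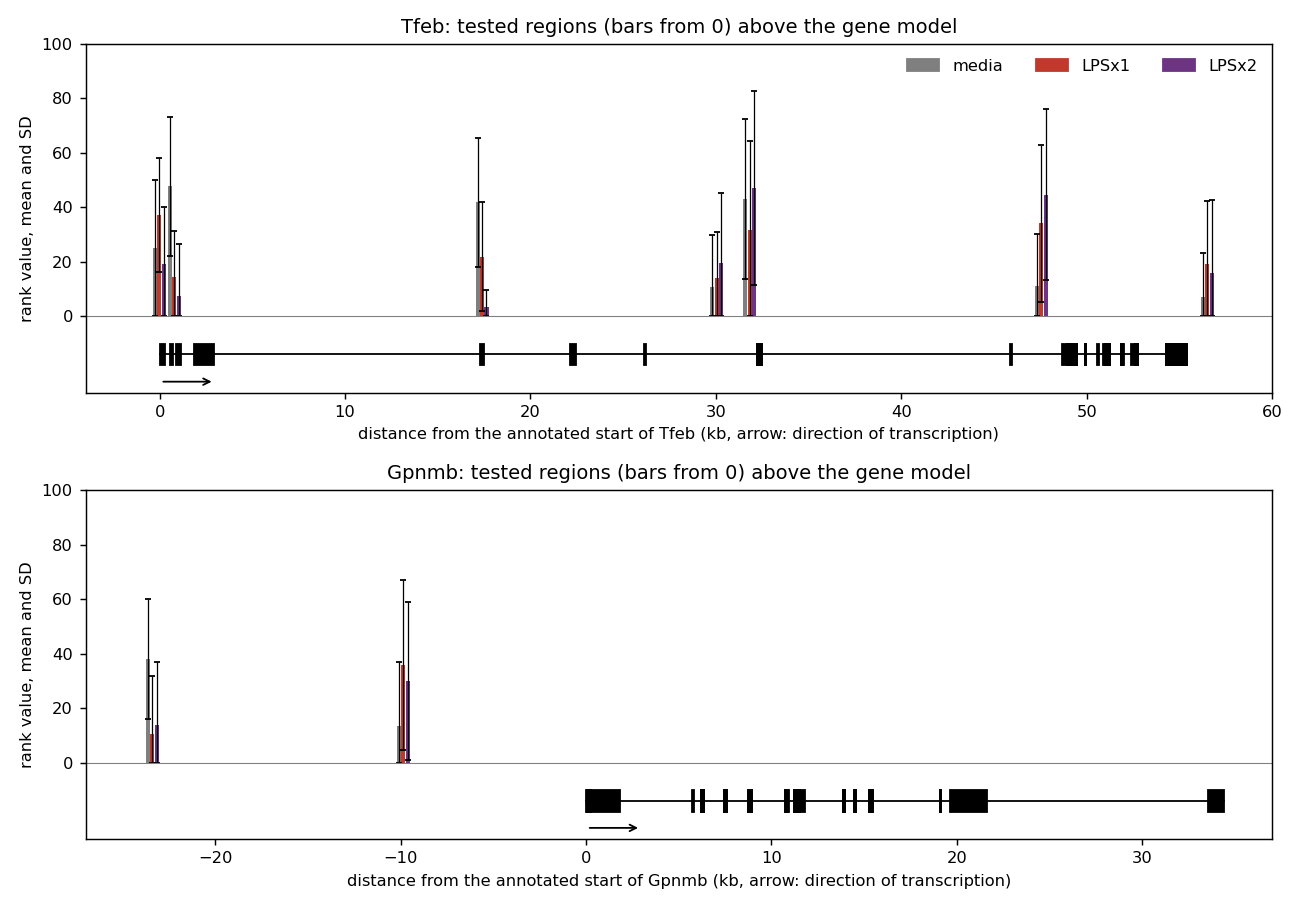
Tested regions of Tfeb (upper) and Gpnmb (lower) by distance from the annotated gene start in kb (horizontal), with the mean rank value per treatment as bars from 0 and SD as lines whose lower ends stop at 0 (vertical). Black boxes are exons of all annotated transcripts. At Tfeb the regions at 0.79 and 17.4 kb are highest in media (47.7 and 41.8) while the one at 47.6 kb is highest with LPSx2 (44.7).

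Mitf, the founding member of the family (ENSMUSG00000035158.15, chr6:97807052-98021349), had 2 to 11 peaks per library. C57BL6/J animals 1, 4 and 7 had 6, 9 and 2 in media, 2, 5 and 2 with LPSx1 and 2, 11 and 4 with LPSx2, and animal 6 had 3 with LPSx1. BTBR animals 2, 3, 5 and 8 had 3, 11, 4 and 3 in media, 3, 6, 3 and 3 with LPSx1 and 3, 8, 3 and 3 with LPSx2. The 2 animals of lane 2, where lists were longest, were the highest, and the treatments overlapped. The LPSx1 difference was -1.95 ± 0.754 peaks (limma adjusted p = 0.148), with 4 of 7 animals lower and 3 equal, and -3.25 in lanes 1 and 2 against -0.333 in lanes 3 and 4 within animals. The LPSx2 difference was -0.5 ± 0.775 (adjusted p = 0.747).

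Mitf's start site (chr6:97806790-97807090) was open in all 22 libraries, with a rank value of 60.8 ± 23.9 in media (SD, n = 7), 65.0 ± 15.3 in LPSx1 (n = 8) and 40.1 ± 26.5 in LPSx2 (n = 7). The LPSx2 difference was -19.3 ± 9.83 (limma adjusted p = 0.144, 6 of 7 animals lower). An intron region 13.8 kb inside (chr6:97820687-97820977) was open in 20 libraries, with adjusted p of 0.484 and 0.25. The intron region 22.2 kb inside (chr6:97829082-97829377, the sequence with the PU.1 match) was detected in media in animals 1, 3 and 4 (34.6, 61.6 and 56.3), in no LPSx1 library, and with LPSx2 in animals 3 and 4 (54.3 and 15.8). Its LPSx1 difference was -21.6 ± 7.85 (adjusted p = 0.0457), which rests on lanes 1 and 2 (-38.1 within animals) since it was 0.0 in lanes 3 and 4. The call was lost without any of animals 1, 2, 3, 4, 5 and 8 (adjusted p up to 0.175), and without the 7 lists with duplicates no shortened list held this peak (adjusted p = 1.0). In the full lists this region was found in 5 of 7 media, 6 of 8 LPSx1 and 5 of 7 LPSx2 libraries, with a difference of -8.59 (adjusted p = 0.729).

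Tfe3 (ENSMUSG00000000134.17, chrX:7762560-7775202) acts with Tfeb on lysosomal genes. It had 1, 3 and 3 peaks in media in C57BL6/J animals 1, 4 and 7 and 1, 2, 2 and 1 in BTBR animals 2, 3, 5 and 8. It had 1 peak in all 8 LPSx1 libraries and 1 to 3 with LPSx2, and the groups overlapped at 1. The differences were -0.917 ± 0.319 (limma adjusted p = 0.109) and -0.333 ± 0.328 (adjusted p = 0.563), and the LPSx1 difference passed without animal 1 (-1.25, adjusted p = 0.0472).

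Its single tested region, the start site (chrX:7762453-7762837), was open in all 22 libraries. The rank value was 62.6, 76.5 and 93.3 in media in C57BL6/J animals 1, 4 and 7 and 54.8, 74.6, 86.2 and 82.0 in BTBR animals 2, 3, 5 and 8. The mean was 75.7 ± 13.4 in media (SD, n = 7), 56.0 ± 17.2 in LPSx1 (n = 8) and 60 ± 12.5 in LPSx2 (n = 7). The differences of -20.2 ± 7.99 (limma adjusted p = 0.0655, 5 of 7 animals lower) and -16.0 ± 8.21 (adjusted p = 0.148, 6 of 7 lower) missed the threshold. For LPSx1 the within-animal mean was -4.21 in lanes 1 and 2 and -35.4 in lanes 3 and 4.

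Tfec (ENSMUSG00000029553.10, chr6:16833373-16898441) had 1 to 4 peaks per library and no region within 1 kb of a start. The mean was 2.14 ± 0.9 in media (SD, n = 7), 2.38 ± 1.06 in LPSx1 (n = 8) and 3.14 ± 0.9 in LPSx2 (n = 7). The LPSx2 difference of 1.04 ± 0.425 had a limma adjusted p of 0.148, with 4 of 7 animals higher. The intron region with the M-box core (chr6:16891925-16892239) was found in 21 of 22 libraries, with 51.1 ± 30.8, 57.6 ± 20.6 and 55.1 ± 26.0 in rank value and adjusted p of 0.471 and 0.57.

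The intergenic region 65.7 kb upstream of Tfec (chr6:16963971-16964272) was called lower for LPSx1. In media its rank values were 57.2, 81.7 and 25.5 in C57BL6/J animals 1, 4 and 7 and 89.9, 85.2, 0 and 32.7 in BTBR animals 2, 3, 5 and 8. With LPSx1 they were 1.98, 49.2, 46.0 and 4.58 in C57BL6/J animals 1, 4, 6 and 7 and 0, 54.1, 0 and 0 in the BTBR animals. With LPSx2 they were 85.5, 83.3 and 20.8 and 8.28, 67.8, 37.2 and 53.4. LPSx1 was below media in 6 of 7 animals, and LPSx2 was above LPSx1 in 7 of 7, although the groups overlapped.

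The LPSx1 difference of the Tfec region was -31.8 ± 11.5 (limma adjusted p = 0.0442), with -52.2 in lanes 1 and 2 and -17.8 in lanes 3 and 4 within animals. The LPSx2 difference was -0.915 ± 11.8 (adjusted p = 0.964), and the direct comparison of LPSx2 with LPSx1 gave 30.9 ± 11.5 (adjusted p = 0.919), so the schedules were not shown to differ there. The LPSx1 call was lost without any of animals 1, 2, 3, 4 and 7 (adjusted p up to 0.161). It was also lost without the 7 lists with duplicates (-21.0, adjusted p = 0.604) and with full lists (-5.4, adjusted p = 0.804).

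Flcn, the folliculin tumour suppressor (ENSMUSG00000032633.12, chr11:59791408-59810016), had 0 to 2 peaks per library. A peak was present in 4 of 7 media, 4 of 8 LPSx1 and 1 of 7 LPSx2 libraries, and the mean was 0.857 ± 0.9 (SD, n = 7), 0.5 ± 0.535 (n = 8) and 0.143 ± 0.378 (n = 7). The differences were -0.448 ± 0.229 (limma adjusted p = 0.274) and -0.708 ± 0.235 (adjusted p = 0.0831, 4 of 7 animals lower and 3 equal). Its start-site region (chr11:59809663-59809972) was found in 8 libraries (13 in the full lists) at rank values of at most 31.5, with adjusted p of 0.912 and 0.545.

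Among the 22 tested regions of the 6 genes, limma called 1 higher and 4 lower for LPSx1, beside 10.2% higher and 10.5% lower of all 22873 tested regions (20.7% in all). For LPSx2 it called 1 higher and 3 lower, beside 11.5% and 12.6% (24.1% in all). With 22 regions these counts do not set the members apart from the rest. The median difference was 0.872 over the members and 0.346 over all regions for LPSx1, and -3.7 and -0.0824 for LPSx2. Over genes, the median difference was -0.964 and -0.604 peaks for the 6 members and 0.0 for all genes in both contrasts. These differences are not scaled by peak number. Of 9104 tested genes 1957 had a mean of at least 2 peaks, as Mitf, Tfeb and Tfec did. Medians of genes with similar peak numbers were not compared, so the gene medians do not show whether the members stand apart. At an unadjusted limma p under 0.05 were 3 of 6 members for LPSx1 and 4 for LPSx2. Of all genes, 21.7% and 24.8% were.

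**Figure D3:**
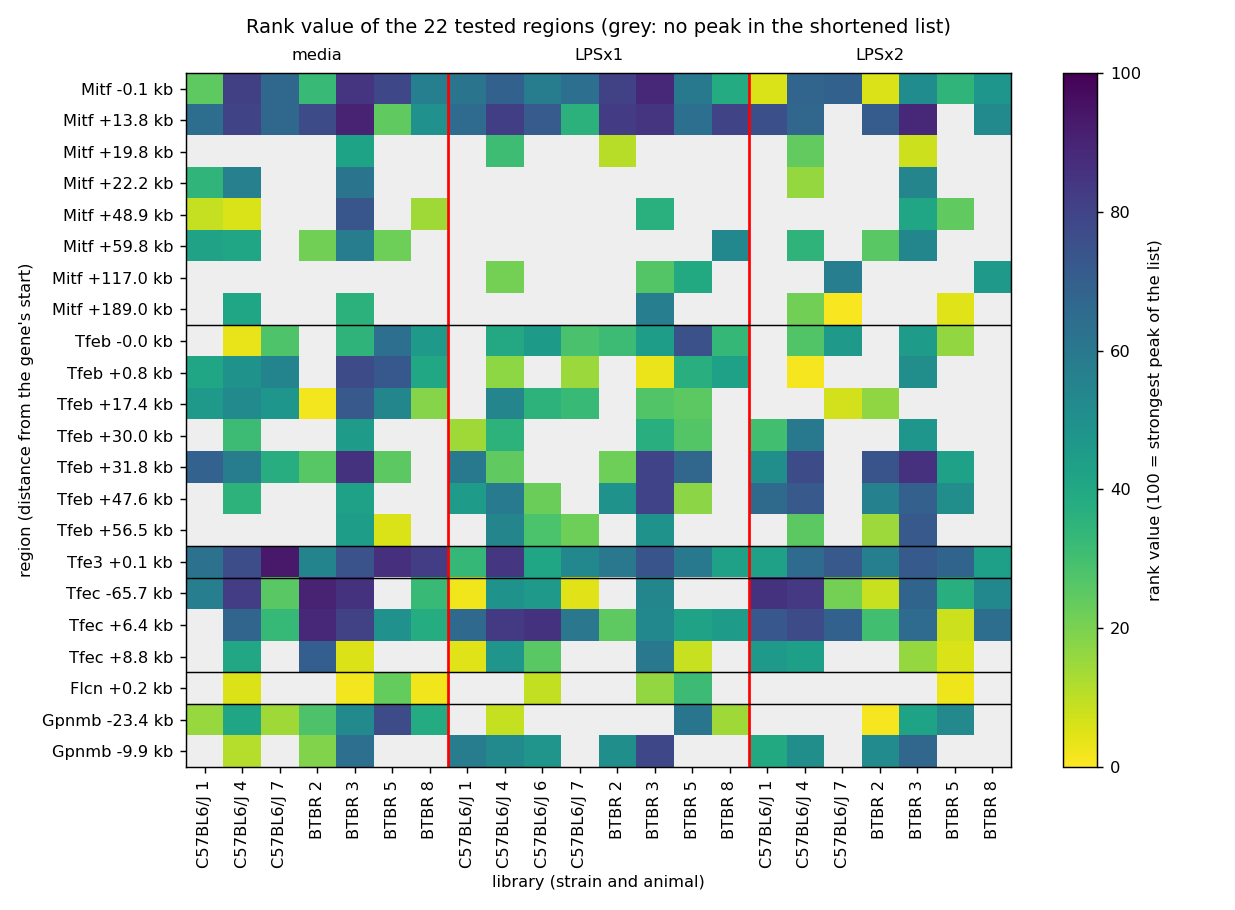
Rank value (colour, 0 to 100) of the 22 tested regions (rows, by gene and distance from its start in kb) in the 22 libraries (columns, by treatment, strain and animal); grey means no peak in the shortened list. The start sites of Mitf and Tfe3 are open in all 22 libraries, and the Gpnmb region 23.4 kb upstream is open in all 7 media libraries.

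**Figure D4:**
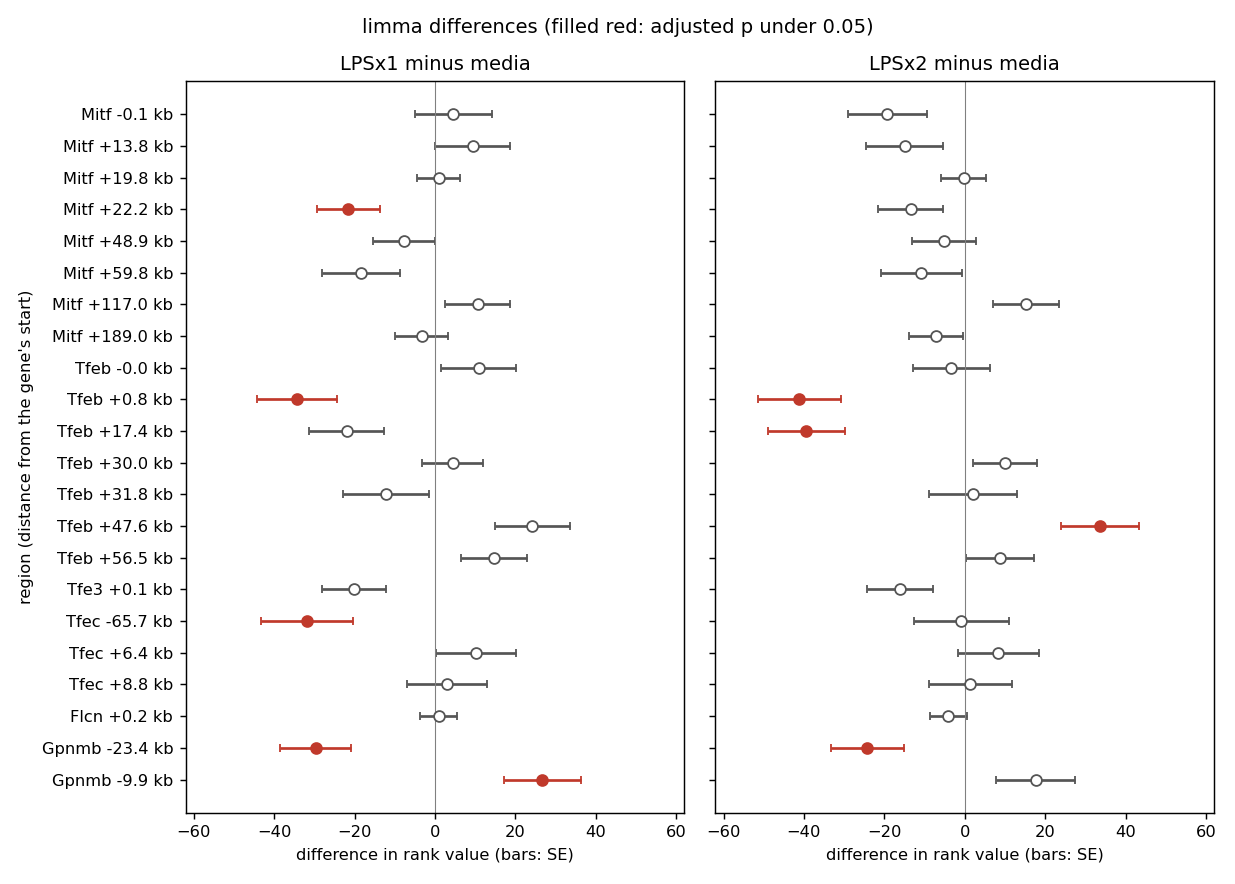
Fitted difference in rank value (horizontal, with SE) of the 22 tested regions for LPSx1 and LPSx2 against media; filled red marks an adjusted p under 0.05. The Tfeb regions at 0.79 and 17.4 kb lie at -41.2 and -39.4 for LPSx2, and the one at 47.6 kb at 33.6.

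LPSx2 and LPSx1 were not separated at these genes. Limma called 0 of 6 genes and 0 of 22 regions, with 0 genes and 3 regions at an unadjusted p under 0.05. Over all genes it called 0.0% of 9104 (407 at an unadjusted p under 0.05) and over all regions 0.0% of 22873 (1231). The gene differences ran from -1.2 ± 0.705 peaks (Tfeb) to 1.45 ± 0.754 (Mitf).

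The strains were not separated either. Limma called 0 of 6 genes for BTBR against C57BL6/J (1.91% of all genes), with 1 at an unadjusted p under 0.05, and 0 of 22 regions (5.3% of all regions), with 2. The 1 gene was Gpnmb, with 1.83 ± 1.34 peaks in BTBR (SD, n = 12) and 1.3 ± 1.16 in C57BL6/J (n = 10), a difference of 0.53 ± 0.236 (adjusted p = 0.318). The region with the highest difference was the one 23.4 kb upstream of Gpnmb, at 16.3 (adjusted p = 0.203). Whether the LPS responses differed between strains was tested by interaction terms: limma called 0 of 6 genes for LPSx1 and 0 for LPSx2, with 0 at an unadjusted p under 0.05 in each. Over all genes both interactions called 0.0% (518 and 594 genes at an unadjusted p under 0.05).

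By mean peaks per library the order was Tfeb (4.64 ± 2.46, SD, n = 22), Mitf (4.5 ± 2.82), Tfec (2.55 ± 1.01), Gpnmb (1.59 ± 1.26), Tfe3 (1.45 ± 0.739) and Flcn (0.5 ± 0.673). Neighbours in this order differed by less than the larger of their SDs, except Tfe3 and Flcn, whose ranges (1 to 3 and 0 to 2) still overlapped. The numbers are not scaled by length, and the genes span 55.4, 214.0, 65.1, 34.4, 12.6 and 18.6 kb in that order.

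For the members with a mean of at least 2 peaks, the genes with the most similar lane-centred peak numbers over the 22 libraries were sought among 1957 genes. For Mitf they were Wipf1 (Pearson r = 0.809), Arhgap15 (0.713) and Zfpm1 (0.698). For Tfeb they were Tef (0.793), Ppcdc (0.784) and Hnrnpf (0.743), and for Tfec AW554918 (0.769), Ppp1r21 (0.746) and Slc24a3 (0.745). These are descriptions: the libraries share animals and lanes, and the 3 were the highest of many.

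The genes that the family is known to control, and those that control it, were taken as 5 lists. Of 34 lysosomal genes with CLEAR-type regulation in the annotation, 24 were tested, and limma called 0 for LPSx1 and 2 lower for LPSx2, beside the 3.08% of all genes that were lower. Ctsb, the protease cathepsin B, went from 4.57 ± 0.976 peaks in media (SD, n = 7) to 2.43 ± 1.72 with LPSx2 (n = 7), a difference of -2.08 ± 0.507 (adjusted p = 0.0281, 7 of 7 animals lower). Lipa, the lysosomal acid lipase, went from 3.57 ± 1.62 to 2.14 ± 1.35 (-1.42 ± 0.373, adjusted p = 0.0381, 6 of 7 lower). For LPSx1, 4 genes of this list had an unadjusted p under 0.05, and the list's median difference was -0.141 for LPSx1 and -0.312 for LPSx2. Without animals 4, 5 or 8 the LPSx2 count was 0, and without animals 1 or 3 it was 1.

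Of 18 V-ATPase subunits, which acidify the lysosome, 16 were tested. Atp6v0c, a proton channel subunit, fell with LPSx1 from 2.14 ± 1.68 peaks (SD, n = 7) to 1.0 ± 0.926 (n = 8; -1.21 ± 0.287, limma adjusted p = 0.0266) and with LPSx2 to 0.714 ± 1.25 (n = 7; -1.58 ± 0.295, adjusted p = 0.00757). Atp6v0a1 fell with LPSx2 from 2.0 ± 1.53 to 0.143 ± 0.378 (-1.96 ± 0.449, adjusted p = 0.0214, 6 of 7 animals lower). Limma called 1 subunit lower for LPSx1 and 2 for LPSx2, beside 2.33% and 3.08% of all genes. No subunit was called higher, and the list's median difference was -0.172 for LPSx1 and -0.271 for LPSx2. With the animal as replicate block the LPSx1 count was 0, as it was without any one of animals 1, 3, 4, 5, 7 and 8; the LPSx2 count was 0 without animal 4 and 1 without animals 1, 3, 7 or 8.

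Autophagy genes gave 3 lower for LPSx1, and 3 lower and 1 higher for LPSx2, of 16 tested of 20 listed. Of all genes, 2.33% were lower for LPSx1, and 3.08% lower and 3.81% higher for LPSx2. Map1lc3a, an LC3 protein of the autophagosome membrane, had 1.29 ± 0.756 peaks in media (SD, n = 7), 0.125 ± 0.354 after LPSx1 (n = 8) and 0.143 ± 0.378 after LPSx2 (n = 7), with limma adjusted p of 0.00686 and 0.00962. Its relative Gabarap went from 1.86 ± 0.9 to 0.25 ± 0.463 and 0.429 ± 1.13 (adjusted p = 0.0247 and 0.0375). Uvrag, which acts in autophagosome and endosome maturation, fell with LPSx1 (-1.74 ± 0.447, adjusted p = 0.0363, 7 of 7 animals lower), and Map1lc3b fell with LPSx2 (-0.917 ± 0.227, adjusted p = 0.03). Atg9a, a membrane protein of early autophagosomes, rose with LPSx2 from 0.857 ± 0.9 to 1.86 ± 0.9 (1.0 ± 0.239, adjusted p = 0.0253, 6 of 7 higher). The list's median difference was -0.0104 and -0.292. With 1 animal left out the count of 3 for LPSx1 ranged from 0 (animal 7) to 3 and was 1 without animals 1, 5 or 8; the count of 4 for LPSx2 was 0 without animals 7 or 8, 1 without animal 1 and 2 without animals 3, 4 or 5. With the animal as replicate block the LPSx1 count was 1.

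Of 27 genes for nutrient sensing and Rag-mTORC1 control, 20 were tested. Ppp3ca, the catalytic subunit of calcineurin, which dephosphorylates Tfeb, rose with LPSx1 from 4.0 ± 2.58 peaks (SD, n = 7) to 7.38 ± 1.85 (n = 8; 3.19 ± 0.803, limma adjusted p = 0.034, 6 of 7 animals higher). This count of 1 stood beside 3.46% of all genes called higher. It was 0 without any one of animals 1, 3, 5, 6, 7 and 8. Limma called 0 genes of the list for LPSx2 (4 at an unadjusted p under 0.05), beside 6.89% of all genes, with a median difference of -0.125. Of 11 macrophage and osteoclast genes described as targets, 7 were tested. Limma called 0 in either contrast, beside 5.79% of all genes for LPSx1 and 6.89% for LPSx2. At an unadjusted p under 0.05 were 2 for LPSx1 and 1 for LPSx2, with median differences of -0.271 and -0.25. Between strains, the tetraspanin Cd63 of the lysosomal list had fewer peaks in BTBR (0.333 ± 0.492, SD, n = 12, against 1.3 ± 0.483, n = 10; -1.02 ± 0.179, adjusted p = 0.0108), and no other gene of the 5 lists was called. Over all genes 1.91% were called between strains. With full lists limma called 0 genes between strains, so the Cd63 call did not hold there. The n of 12 and 10 are libraries, from 4 animals of each strain. With full peak lists all 10 counts of these 5 lists (LPSx1 and LPSx2) were 0, and without the 7 lists with duplicates all were 0 except the described targets, at 1 in each contrast.

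**Figure D5:**
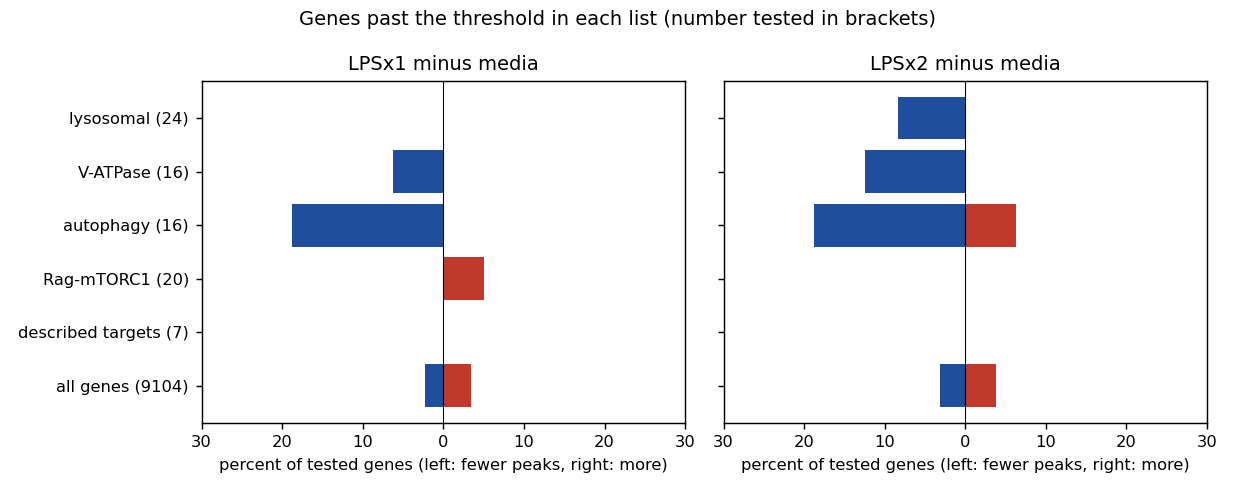
Percent of tested genes past the threshold in each list and over all genes (horizontal; left, fewer peaks; right, more peaks), for LPSx1 and LPSx2 against media; the number tested is in brackets. All genes stand at 2.33% lower and 3.46% higher for LPSx1 and at 3.08% and 3.81% for LPSx2.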

How the data were processed

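ATAC-seq was made from 50000 cells per reaction, sequenced as 50 bp paired-end reads, and fragments under 147 bp were used, per the labels' protocols. The submitters' processing notes name Trimmomatic 0.38, SAMtools 1.8, Picard 2.18.4, HOMER and bedtools, and mm10. The authors deposited 1 list of fixed-width peaks per library with a score in steps of 0.5 whose scale is not given in the sources used here, so scores only ranked peaks within a list; list names state a false discovery rate of 0.01 and removal of blacklisted regions. Read depth is not given in the sources used here.

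Overlapping peaks were merged to the highest-scoring one. Lists under 5000 peaks were left out, and lists were limited within a lane, with ties broken in seeded random order. Peaks went to the nearest GENCODE vM21 protein-coding start site within 100 kb; sequences and promoters came from GRCm38.p6 and RefSeq. Peaks per gene (mean of at least 0.5) and rank values per region (at least 5 libraries) were fitted with limma 3.58.1 (trend and robust; R 4.3.3, statmod 1.5.0, data.table version 1.17.8), 6 strain-by-treatment groups plus lane, Benjamini-Hochberg over all features, threshold 0.05. The strain contrast kept the animal as a correlated block, with a consensus correlation of -0.0627 for genes and -0.033 for regions. Values below 0 do not widen the SE of a difference between animals, so the block did not guard against counting libraries of 1 animal separately. Limma called 174 genes and 1212 regions between strains with the block, and 108 and 1016 without it. Python 3.11.15 (pandas 2.3.3, numpy 2.4.6, matplotlib 3.10.9) did the rest. The fits were also run on simulated data that held no effect of the animal or of duplicates, so that run does not bear on either.

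The labels' biological replicate number was taken as the animal, with 3 libraries each. Gene-level deviations of same-animal libraries correlated at 0.211 to 0.795 (21 pairs), and after lane centring at -0.259 to 0.474. Fits with the animal as replicate block are given where they change a call. The labels do not say more about how far the animals were handled separately, so p-values measure the spread between these samples.

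The members and lists were chosen with earlier results of these data known. All 6 members were named, with the region at each start site, each region past the threshold, and for members without one the region of smallest p; from each list, genes past the threshold, up to 6 a contrast; and the 3 genes most like each member with a mean of at least 2 peaks. Other regions, such as the first start of Tfeb, the Mitf region 13.8 kb inside and regions in media libraries only, were added after their values were seen. Alternatives were full lists, the stronger 50% of each list, ties left out, no lane, the replicate block, a 25 kb window, other filters, detection in place of rank, leaving out the 7 lists with duplicates and leaving out each animal. 1 further macrophage marker is not reported here.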

Additional observations from a re-analysis of the deposited data

Results flagged for a closer look

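In groups of 4 libraries, 15 of 64 tests found 1 library far from the other 3. Its gap to the nearest was then most of the group's range (Dixon's 95% limit). Chance alone passes about 1 in 20 groups of like libraries. Each group here held 1 library from each of the 4 lanes, whose lists differed in length, so that rate need not apply. In 12 of the 15 the other 3 values were equal, mostly at 0, so any single value above them passes; 0 means no peak in the shortened list. Within BTBR, animal 3 had the most Mitf peaks in every treatment: 11 in media against 3, 3 and 4, 6 in LPSx1 against 3 in each of the others, and 8 in LPSx2 against 3 in each. The same animal was high at the Mitf region 22.2 kb inside in media (61.6) and LPSx2 (54.3), at the Tfeb region 47.6 kb inside in media (42.8), at the Tfeb region 0.79 kb inside in LPSx2 (50.4) and at the Tfec region 65.7 kb upstream in LPSx1 (54.1), with the other BTBR libraries at 0. Its media and LPSx2 lists are among the 7 with duplicates, and its LPSx1 list is not. Animal 3 was also the only BTBR animal of lane 2, where the shortened lists were longest, at 22037 peaks. The part of duplicates or of list length in these values was not tested.

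In the shortened lists, BTBR animal 2 alone of its strain had the Tfeb region 17.4 kb inside in LPSx2 (16.6). BTBR animal 5 alone of its strain had a Flcn peak in LPSx2 (1), at its start region (rank value 2.55), and stood apart there in media (23.6 against 0, 1.89 and 2.24). C57BL6/J animal 6 alone of its strain had the Flcn start region in LPSx1 (9.32). C57BL6/J animal 4 alone of its strain had the Gpnmb region 23.4 kb upstream in LPSx1 (8.8), and at the Gpnmb region 9.86 kb upstream C57BL6/J animal 7 was the lowest in LPSx1 (0.0 against 48.0, 52.7 and 57.6).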

How the results depend on the processing

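The count of member genes called (1 for LPSx1, 1 for LPSx2) was 0 in both contrasts with full lists, with the stronger 50% of each list, without the lane covariate and without the 7 lists with duplicates. For LPSx2 it was 2 with 1 start site a gene and 2 without genes of constant peak number. Leaving out each animal gave 1 to 2 in both. Called member regions for LPSx1 (5) became 1 with full lists, 1 with the stronger 50%, 0 without the lane, 2 with regions in at least 3 libraries, 0 with detection in place of rank, 2 with the peak on the central part of the region and 0 without the 7 lists; leaving out each animal gave 0 to 5. For LPSx2 (4) they became 0, 0 and 2 with full lists, the stronger 50% and no lane, 0 with detection and 0 without the 7 lists; leaving out each animal gave 2 to 4. The cause of these changes was not tested. Requiring 100 bp of the whole region gives the same values by construction, so 100 bp of its central part, 1 peak wide, was used; this, the single start site and the fit without constant genes were chosen after seeing the data.

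With the animal as replicate block, the Gpnmb gene difference was -1.79 for LPSx1 (limma adjusted p = 0.0216) and -1.83 for LPSx2 (0.018); the block ended the call of the Gpnmb region 9.86 kb upstream (adjusted p = 0.0793) and of no other called member gene or region. Over all genes it called 363 for LPSx1 (527 without it) and 557 for LPSx2 (627).

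Of the differences that changed sign, limma had called those of Gpnmb for LPSx1 and LPSx2 (-1.77 and -1.83), which were above 0 with the stronger 50%; no changed value passed the threshold under its alternative. With full lists, Mitf was 11.1 for LPSx1, 10.8 for LPSx2, -0.323 for LPSx2 minus LPSx1 and 10.8 between strains; Tfeb was 0.385 for LPSx1; Tfe3 was 0.198 for LPSx1, -0.24 for LPSx2 minus LPSx1 and 1.18 between strains; Tfec was 2.41 between strains; the Tfec region 65.7 kb upstream was 12.5 for LPSx2. With the stronger 50%, Mitf was 0.104 for LPSx1, -0.521 for LPSx2 minus LPSx1 and 0.27 between strains; Tfeb was 0.167 for LPSx2 and 0.729 for LPSx2 minus LPSx1; Tfe3 was 0.186 between strains; Tfec was -0.125 and Gpnmb 0.125 for LPSx1; Gpnmb was 0.0417 for LPSx2; the Mitf start region was -0.168 for LPSx1. Without the 7 lists, Mitf was 0.833 for LPSx2 and 0.249 between strains, Tfeb -0.696 between strains, Tfec -0.212 for LPSx1, and the Flcn start region -0.971, the Mitf start region -2.99 (LPSx1) and the Tfeb region 31.8 kb inside -7.89 (LPSx2). With detection, in percent of libraries, these were -26.0 (Flcn, LPSx1), -16.7 (Tfeb, LPSx2) and 12.5 (Tfec, LPSx2). Mitf was 0.0833 for LPSx2 and 0.0125 between strains within 25 kb, 0.246 between strains without ties and 0.196 with 1 start site. Leaving out each animal, signs changed for Mitf LPSx2 (-1.0 to 0.5), Tfeb (-0.305 to 0.686) and Flcn (-0.0975 to 0.192) between strains, Gpnmb LPSx2 minus LPSx1 (-0.196 to 0.152), and the start regions of Flcn (-0.743 to 2.14) and Mitf (-3.32 to 9.21) for LPSx1, the Tfeb region 31.8 kb inside (-5.73 to 8.36) and the Tfec region (-8.83 to 11) for LPSx2.

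Over all genes limma called 527 for LPSx1 and 627 for LPSx2, beside 0 and 0 with full lists, 228 and 342 with the stronger 50%, 143 and 149 without the lane, 839 and 938 without the filter and 108 and 120 without the 7 lists; LPSx2 minus LPSx1, at 0, had 38 without them. Between strains 174 became 0, 106, 16 and 138 for full lists, the stronger 50%, no lane and no 7 lists, and 108 without the block. Over all regions 4730 (LPSx1) and 5507 (LPSx2) became 1997 and 2127 with the stronger 50%, 1385 and 1623 without the lane, 1671 and 1817 with detection and 881 and 424 without the 7 lists, and 3476 for LPSx2 with full lists. Between strains 1212 regions became 56 with full lists, 480 with the stronger 50%, 102 without the lane, 631 with detection and 240 without the 7 lists. Leaving out each animal gave 223 to 447, 232 to 656 and 57 to 169 genes and 2642 to 4408, 2835 to 5519 and 584 to 1696 regions for LPSx1, LPSx2 and strain.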
